A study of Homo sapiens with 3 samples.

Results

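The 29 genes described here encode glutamate receptors and glutamate transporters. They were taken as a named list and found by symbol, and all 29 were among the 32732 genes that the feature tables of the 3 libraries share. The list holds 4 AMPA receptor subunits (GRIA1 to GRIA4), 5 kainate receptor subunits (GRIK1 to GRIK5), 7 NMDA receptor subunits (GRIN1, GRIN2A to GRIN2D, GRIN3A and GRIN3B) and the delta receptor GRID1. It also holds 7 metabotropic receptors (GRM2 to GRM8), the vesicular transporters SLC17A6, SLC17A7 and SLC17A8, and the plasma membrane transporters SLC1A1 and SLC1A2.

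Glutamate is the main excitatory transmitter of the central nervous system. A neuron that releases it loads it into synaptic vesicles through a vesicular transporter, and the receiving cell answers through ionotropic receptors, which are channels, and metabotropic receptors, which act through G proteins. Plasma membrane transporters of neurons and astrocytes then clear it from the extracellular space. Neurons that release GABA or glycine carry glutamate receptors as well, while a vesicular transporter is the usual mark of a cell that releases glutamate.

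The data are UMI counts per gene and cell from 3 single-cell libraries, with 1 library per group. The day 0 group is BJ cells, an established human fibroblast line, of wild-type genotype. The day 3 and day 5 groups are labelled FiN cells, induced neuron cells made from BJ cells, also of wild-type genotype. The culture used induction and then maturation medium, both with forskolin, an activator of adenylyl cyclase, with withdrawal on day 5. The treatment label, reprogramming, is the same for all 3 groups, and the labels do not say whether day 0 cells had met forskolin. For days 0 and 3 the protocols describe suspensions of nuclei and name a chromatin accessibility kit alone, although the files hold gene counts, so how those libraries were made is unclear. For day 5 they describe dissociated cells and name a gene expression kit beside the same accessibility kit. Whether intron reads or strand were counted is not stated. Day and preparation therefore cannot be told apart in any comparison with day 5.

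Filtering kept 16773 day 0 cells (246546451 UMIs in all, 14039 in the median cell), 11454 day 3 cells (18743865 and 1324) and 9219 day 5 cells (51708522 and 4374). Mitochondrial UMIs took 6.45%, 0.744% and 4.94% of the total at days 0, 3 and 5. Of the day 3 cell barcodes, 63 also occurred at day 0 and 27 at day 5, and 47 day 5 barcodes occurred at day 0. The label checks were mixed: the dendritic gene MAP2 stood at 1.87, 2.24 and 960 CPM at days 0, 3 and 5 and the neuronal gene DCX at 0, 0 and 154 CPM, so the day 3 library labelled induced neuron cells held few UMIs of either. The fibroblast collagen gene COL1A1 stood at 2027, 380 and 10.3 CPM, and PDGFRA, a receptor of mesenchymal cells, at 52.7, 1281 and 0.727 CPM.

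Levels are CPM, a gene's UMIs scaled to the library's total on the shared genes, with exact Poisson 95% intervals that cover counting error only. With 1 library per group there is no replicate check and no test. A gene is called higher or lower when the CPM ratio is at least 2, the larger CPM is at least 10 and the intervals do not overlap. A level under 3 UMIs is set at 3 UMIs in the ratio, so a ratio against 0 UMIs depends on this floor. It is not a confidence bound, since the interval of 0 UMIs reaches 0.197 CPM at day 3. The level of 3 UMIs is 0.0122 CPM at day 0, 0.160 CPM at day 3 and 0.0589 CPM at day 5.

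Promoter sequence from RefSeq (GRCh38.p14, 300 bases with 250 before and 50 after an annotated start) was searched in 37 windows of 23 of the 29 genes, and GRIA3, GRIK1, GRIN1, GRIN2C, GRID1 and SLC1A2 were not analysed in this way. The search used 3 motifs on both strands, none of which contains another: TGACGTCA, the cAMP response element, because forskolin raises cAMP; CAGCACCNNGGACAG, the core of the RE1 element that the neuronal repressor REST binds; and CAGCTG, an E-box bound by proneural factors. The cAMP response element was in 1.85% of all 35116 windows and in 0 windows of these genes. The RE1 core was in 0.0513% of all windows and, among these genes, in 1 window of GRIA2. The E-box was in 17.9% of all windows and in 6 of the 37 windows of these genes, 16.2%, close to the share of all windows, from 5 genes, GRIA2, SLC17A6, GRM5, GRIK4 and SLC17A8. The RE1 match in GRIA2 starts 227 bases before the RefSeq start of its window, with the core reading on the opposite strand. The E-box in SLC17A6 starts 197 bases before the RefSeq start of its window. These distances depend on the start taken. In GENCODE 29 the genes begin further upstream, GRIA2 at chr4:157204182 and SLC17A6 at chr11:22338097, so both matches lie inside those gene spans. Both genes had 0 UMIs at days 0 and 3, which is why these stretches are shown, 30 bases each on the plus strand with the motif in capitals, at chr4:157220385-157220414 and chr11:22338172-22338201. A match is a description of the letters and not of binding.
GRIA2 RE1 core: cgaggcgCTGTCCTCGGTGCTGaaaggccg
SLC17A6 E-box: tacattgtttttCAGCTGaccgacttccag

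The 29 genes together held 31.7 CPM at day 0, 109 CPM at day 3 and 1749 CPM at day 5. At day 0, 6 of the 29 had 0 UMIs and 24 were under 1 CPM. At day 3, 6 had 0 UMIs and 20 were under 1 CPM, in a library with fewer UMIs. At day 5 each of the 29 had at least 1 UMI and 3 were under 1 CPM, namely GRM4, GRM6 and SLC17A7. After thinning each cell to 1000 UMIs, 2.23% of day 0 cells, 9.62% of day 3 cells and 67.3% of day 5 cells held a UMI of at least 1 of the genes, and the unthinned shares were 27.9%, 14.7% and 93.8%. The thinned shares came from 14382, 8441 and 9219 cells.

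**Figure D1:**
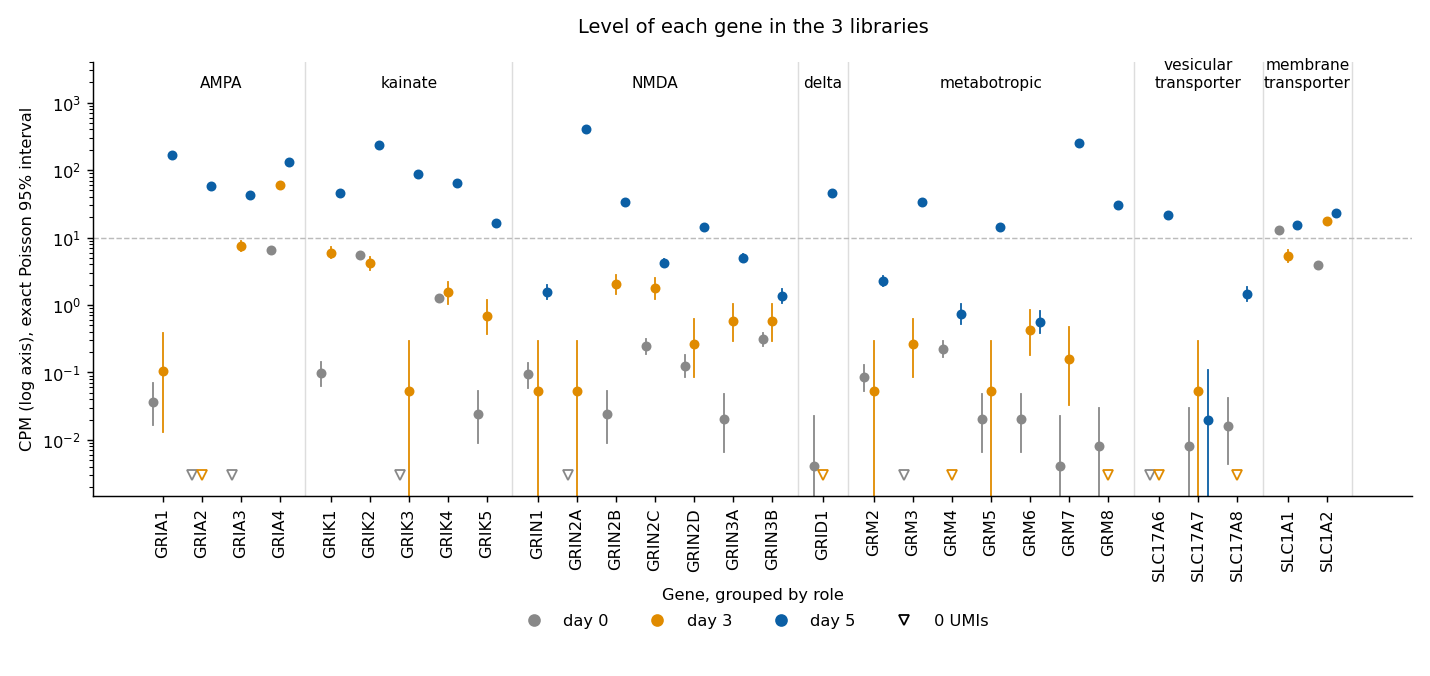
Level of each of the 29 genes (CPM, log axis) in the day 0, day 3 and day 5 libraries, grouped by role, with exact Poisson 95% intervals as lines, open triangles for 0 UMIs and a dashed line at 10 CPM. At day 5, 20 genes lie at or above the dashed line, led by GRIN2A at 403 CPM, while SLC17A7 lies at 0.0196 CPM.

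At day 3 against day 0, 2 of the 22 genes with at least 3 UMIs in either library were higher and 1 was lower. Over all 21692 genes compared, 18.1% were higher and 9.2% lower, so the shares among the receptor and transporter genes were not above those of all genes. The 3 called genes were also the 3 that reached 10 CPM in either library. GRIA4, an AMPA receptor subunit of early and fast-signalling neurons, had 1112 UMIs at day 3, 59.4 CPM (56.0 to 63.0), against 1590 UMIs at day 0, 6.45 CPM (6.14 to 6.78), a 9.21-fold higher level. SLC1A2, the transporter that clears most synaptic glutamate into astrocytes, stood at 17.5 CPM (15.7 to 19.5) at day 3 and 3.93 CPM (3.69 to 4.19) at day 0, 4.46-fold higher. SLC1A1, a transporter of neurons and of several tissues outside the brain, stood at 5.34 CPM (4.35 to 6.50) at day 3 and 13.1 CPM (12.7 to 13.6) at day 0, 2.46-fold lower.

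All 3 of these genes were counted in fibroblasts at day 0, GRIA4 in 1240 cells, SLC1A1 in 2360 cells and SLC1A2 in 837 cells. Among the rest, GRIA3 had 141 UMIs at day 3, 7.54 CPM, against 0 UMIs at day 0, and GRIK1 had 112 UMIs, 5.99 CPM, against 24 UMIs, 0.0974 CPM. Neither reached 10 CPM. GRIK2 did not differ by the rule, with 4.17 CPM at day 3 and 5.57 CPM at day 0. SLC1A2 was no longer called with TMM scaling, at a log2 ratio of 0.96, or with the median of ratios, at 1.00, and SLC1A1 was no longer called in thinned cells, at a log2 ratio of -0.82. With TMM scaling the median log2 ratio of all genes moved to 0.16, against 1.36 with totals, and the calls over all genes turned to 7.0% higher and 22.4% lower.

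At day 5 against day 3, 19 of the 28 genes compared were higher and 0 were lower, where 18.1% of all 25377 genes were higher and 14.3% lower. The median log2 ratio was 4.31 over the 28 genes and 0.077 over all genes. Against day 0, a comparison that shares the day 5 library, 19 of 28 were higher and 0 lower, where 22.9% of all genes were higher and 12.1% lower. The median log2 ratio was 8.42 over the 28 genes and 1.97 over all genes, and with TMM scaling the median of all genes was 0.84 and the calls over all genes were 15.3% higher and 20.2% lower. Of the marker lists, 12 of 12 pan-neuronal and 8 of 10 neural progenitor genes were higher at day 5 than at day 3. Of 12 GABA and glycine genes 5 were higher and 1 lower. Of 10 glutamatergic neuron genes 2 were higher, SLC17A6 itself and EBF2, and 0 lower. Of 9 fibroblast genes 8 were lower. The 8 astrocyte and radial glia genes had 2 higher and 1 lower. The 7 oligodendrocyte genes had 2 higher and 2 lower, and the 7 cycling genes 1 and 0. The counts of 19 were the same with TMM scaling and with day 5 cluster 6, described below, left out.

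All 4 AMPA receptor subunits were higher at day 5 than at either earlier day. GRIA1 stood at 0.0365, 0.107 and 166 CPM at days 0, 3 and 5, from 9, 2 and 8471 UMIs. GRIA2, the subunit whose edited form keeps the channel closed to calcium, had 0, 0 and 2947 UMIs, which is 57.9 CPM (55.8 to 60.0) at day 5. With day 3 set at 3 UMIs, the ratio to day 3 was 361-fold. GRIA3 stood at 0, 7.54 and 42.1 CPM and GRIA4 at 6.45, 59.4 and 130 CPM. At day 3 GRIA4 made up 59.4 of the 67.1 CPM summed over the AMPA subunits, while the day 5 sum of 396 CPM was spread over all 4. The ratio of GRIA4 between day 5 and day 3, at log2 1.13, was the smallest of the called genes, and in thinned cells it was 0.68 and not called.

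All 5 kainate receptor subunits were higher at day 5. GRIK2, which can form a channel by itself, had 1374, 78 and 11896 UMIs at days 0, 3 and 5, or 5.57, 4.17 and 234 CPM. GRIK3 had 0 UMIs at day 0, 1 at day 3 and 4458 at day 5, where it stood at 87.5 CPM (85.0 to 90.2). GRIK1 stood at 0.0974, 5.99 and 46.2 CPM. The subunits that need a partner of the GRIK1 to GRIK3 kind stood lower than GRIK2 in CPM at day 5, GRIK4 at 1.28, 1.55 and 65.4 CPM and GRIK5 at 0.0243, 0.695 and 16.5 CPM. Together the kainate subunits held 6.97, 12.5 and 449 CPM.

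Among the NMDA receptor subunits 3 of 7 were higher at day 5 and the obligatory subunit GRIN1 was not called. GRIN2A, a glutamate-binding subunit, had 0 UMIs at day 0, 1 UMI at day 3 and 20500 UMIs in 4105 cells at day 5, 403 CPM (397 to 408). Against that 1 UMI its CPM ratio between day 5 and day 3 was 7532-fold (exact interval 1352 to 297519), and with day 3 set at 3 UMIs it was 2511-fold. GRIN2B stood at 0.0243, 2.03 and 33.7 CPM and GRIN2D at 0.126, 0.267 and 14.3 CPM, both higher at day 5. GRIN1, without which no NMDA receptor forms, had 23, 1 and 80 UMIs, or 0.0933, 0.0534 and 1.57 CPM (1.25 to 1.96). Its day 5 level was under the limit of 10 CPM, as were those of GRIN2C at 4.16 CPM, GRIN3A at 5.01 CPM and GRIN3B at 1.35 CPM. With a limit of 1 CPM all 7 subunits were called higher at day 5 against either earlier day, where 29.8% of all genes were higher and 22.1% lower between day 5 and day 3.

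Length is one measured difference between these subunits. GRIN1, at chr9:137138390-137168762 (GRCh38, GENCODE 29), holds 23644 bases of intron, and GRIN2A, at chr16:9753404-10182754, holds 412655. Per 100 kb of gene span, the day 5 level of GRIN2A was 93.8 CPM and that of GRIN1 5.17 CPM, so GRIN1 stood lower on this scale too. Of the 4105 day 5 cells with a UMI of GRIN2A, 51 also had one of GRIN1, which is 1.24% (exact interval 0.926 to 1.63), against 0.489% of the cells without GRIN2A. These cells were not thinned to 1 depth, and the part of depth in this difference was not tested. At 80 UMIs in the library, GRIN1 was too sparse to show which cells lacked it. These values pool all day 5 cells, and the clusters described below differed. Cluster 4 held 40 of the 80 GRIN1 UMIs, at 10.5 CPM (7.47 to 14.2), against 0.849 CPM in the other cells. Cluster 6 held 80.4% of the GRIN2A UMIs.

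The delta receptor GRID1, which binds cerebellins at the synapse, had 1 UMI at day 0, 0 at day 3 and 2302 at day 5, or 45.2 CPM (43.4 to 47.1). Of the metabotropic receptors 4 of 7 were higher at day 5. GRM7, a presynaptic receptor that lowers release, had 1, 3 and 12867 UMIs at days 0, 3 and 5, which is 0.00406, 0.160 and 253 CPM (248 to 257). Its group III relative GRM8 had 2, 0 and 1531 UMIs, 30.1 CPM at day 5. GRM3, a group II receptor, stood at 0, 0.267 and 33.8 CPM, and GRM5, a group I receptor that couples to phospholipase C, at 0.0203, 0.0534 and 14.4 CPM. GRM2, GRM4 and GRM6 stayed under 10 CPM, at 2.28, 0.746 and 0.569 CPM at day 5.

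Of the vesicular transporters SLC17A6 alone passed the rule. SLC17A6, also called VGLUT2, is used by glutamate neurons of the brainstem, spinal cord and thalamus. It had 0 UMIs at days 0 and 3 and 1107 UMIs in 671 cells at day 5, 21.7 CPM (20.5 to 23.1). With day 3 set at 3 UMIs, its ratio to day 3 was 136-fold. SLC17A7, or VGLUT1 of the cortex and hippocampus, had 2, 1 and 1 UMIs. SLC17A8, or VGLUT3, had 4, 0 and 75 UMIs, 1.47 CPM at day 5. Of the membrane transporters SLC1A2 stood at 3.93, 17.5 and 23.2 CPM and was called higher at day 5 against day 0 but not against day 3. SLC1A1 stood at 13.1, 5.34 and 15.3 CPM and was called higher at day 5 against day 3 but not against day 0, and its log2 ratio of 0.22 against day 0 became -0.92 with TMM scaling.

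Genes that work beside the receptors were counted from lists, also chosen with earlier results of these data known. Of 22 receptor auxiliary subunit genes, 21 were compared between day 5 and day 3, with 12 higher and 0 lower. Over all genes, 18.1% were higher and 14.3% lower in that comparison. SHISA9 and SHISA6, AMPA receptor partners, stood at 378 and 213 CPM at day 5 and at 0.374 and 0 CPM at day 3, SYNDIG1 at 158 and 0 CPM, and CACNG4 at 121 and 0 CPM. Of 29 postsynaptic scaffold and signalling genes 14 were higher and 2 lower, with DLGAP1 at 1662 and 7.91 CPM, GRIP1 at 380 and 6.36 CPM, CAMK2D at 339 and 45.1 CPM and DLG1 at 333 and 80.4 CPM, at day 5 and day 3 in that order. Of 19 glutamate synthesis and uptake genes 3 were higher and 3 lower. The glial transporter gene SLC1A3 stood at 274 CPM at day 5 and 31.7 CPM at day 3, and the glutamine transporter gene SLC38A1 at 132 and 24.9 CPM. SLC3A2, a partner of amino acid exchangers, stood at 100.01 and 123 CPM and was not called. Against day 0 the counts at day 5 were 12 higher and 0 lower, 15 and 1, and 1 and 3, and at day 3 they were 1 and 2, 8 and 3, and 1 and 3. Over all genes, 22.9% were higher and 12.1% lower at day 5 against day 0, and 18.1% and 9.2% at day 3. Of the genes named, SHISA9, SHISA6, DLGAP1, GRIP1, CAMK2D and DLG1 each hold over 200000 bases of intron. Between day 5 and day 3, 61.6% of all genes with 200000 to 500000 bases of intron were higher, and 84.4% of those over 500000.

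Genes with long introns were higher at day 5 over the whole table. Between day 5 and day 3, 4.78% of all genes with under 20000 bases of intron were higher, 21.7% of those with 20000 to 100000, 45.7% of those with 100000 to 200000, 61.6% of those with 200000 to 500000 and 84.4% of those over 500000. The receptor and transporter genes in these 5 classes had 0 of 4, 4 of 6, 1 of 4, 8 of 8 and 6 of 6 higher. All 14 genes of the list with over 200000 bases of intron were thus higher, in classes where most genes were. The 4 called genes with 20000 to 100000 bases of intron were GRIN2D, GRIK5, SLC17A6 and SLC1A1, and the 1 with 100000 to 200000 was GRIA2.

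Set against the median log2 ratio of all genes in their class, 23 of the 28 genes lay above it and 4 below, between day 5 and day 3. GRIN2A lay 8.34 above its class median, GRIA1 7.07, GRIA2 6.83, SLC17A6 6.53 and GRIK3 6.14. The difference from the class median was -1.82 for GRIA4, -1.55 for GRIN2B, -1.26 for SLC1A2 and -0.47 for GRIA3. GRIK1 was itself the median gene of its class. Spearman's rho between intron length and the log2 ratio was 0.51 over the 28 genes and 0.49 over all 25377 genes, as a description, since all points share the same libraries. Between day 3 and day 0, which share a stated preparation, rho was 0.23 over 22 genes and -0.12 over all genes. Those 2 libraries still differed in median depth, 1324 and 14039 UMIs, and in mitochondrial share, 0.744% and 6.45%, at days 3 and 0. What part intron reads have in these ratios was not tested.

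**Figure D2:**
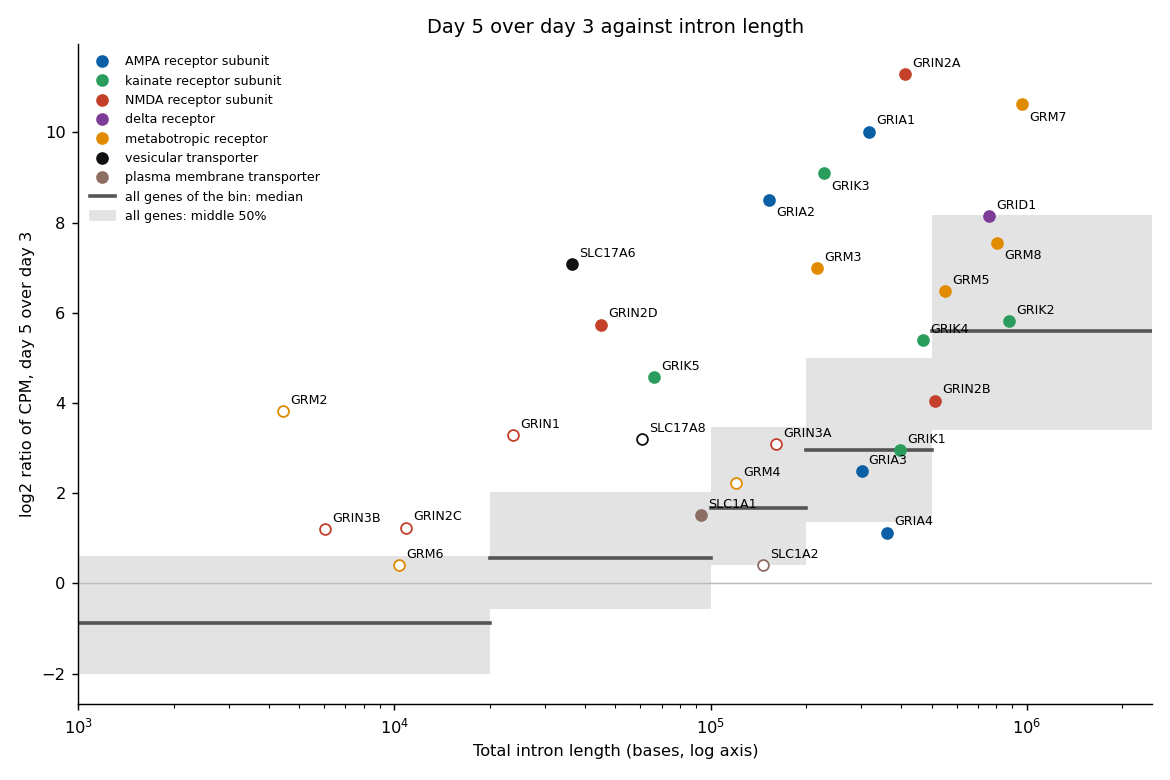
The log2 ratio of CPM between day 5 and day 3 for 28 genes (vertical axis) against total intron length (bases, log axis), coloured by role, filled where the gene was called higher. Grey bars give the interquartile range and dark lines the median of all genes in each length class, with a median of 5.60 over 500000 bases, and GRIN2A, GRIA1, GRIA2 and SLC17A6 lie 6.53 to 8.34 above their class medians.

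On the scale of CPM per 100 kb of gene span at day 5, the order of the genes differed from that in CPM. GRIN2A came first at 93.8, followed by SLC17A6 at 52.5, GRIA1 at 51.3, GRIK3 at 36.7, GRIA2 at 35.7 and GRIA4 at 34.8. GRIN2D stood at 28.5, GRIK2 at 26.3 and GRM7 at 26.0 on this scale, close together although their CPM were 14.3, 234 and 253. GRM8 at 3.69, GRIN3A at 2.96, GRM5 at 2.56, SLC17A8 at 2.27 and GRM4 at 0.545 were low for their length, with SLC17A7 at 0.152 the lowest.

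Among the 32732 shared genes, placed by GENCODE 29, 16 of the 29 genes are overlapped by a gene on the other strand. Another 1, GRIN3A, is overlapped by a gene on the same strand. SLC17A6 and GRIN2A are among the 16. Without a statement on strand, reads of such pairs cannot be told apart, while 12 genes, all 4 AMPA subunits among them, overlap no other shared gene. Annotated genes outside the shared ones were not searched.

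The day 5 library was clustered with the 29 genes left out of the genes used, which gave 11 clusters. A group of 5 clusters (3, 4, 5, 7 and 8), holding 2835 of the 9219 cells, was neuron-like: in each, 3 or more of the 12 pan-neuronal markers stood at least 2-fold above the other cells, a limit chosen after the clusters were seen. Clusters 5, led by SLC6A5 and GAD2, and 8, led by RELN and NXPH1, were GABA and glycine neuron-like. Cluster 7, led by VWDE and holding SLC17A6 and the choline transporter gene SLC5A7 among its leading genes, and clusters 3, led by NEUROD4 and EBF2, and 4, led by CNTN5, were named no further. The largest cluster, number 6 with 2746 cells, was led by CATSPERB, DGKG and TTC6 and was left unnamed, as were clusters 0 (SMOC1 and PAX3), 1 (COL14A1 and COL1A1), 2 and 10, while cluster 9 was cycling-like.

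Since the clusters rest on the same cells, levels across them are a description. Over the summed cells of the 5 neuron-like clusters against the other clusters, 15 of the 29 genes passed the rule as higher and 1, GRIN2A, as lower, where 3.6% of all genes were higher and 3.36% lower. With cluster 6 left out of the other clusters, 14 were higher and 0 lower, where 3.58% of all genes were higher and 2.25% lower. GRIN2A then turned to higher, at 158.9 CPM in neuron-like clusters and 65.7 CPM in the others, and GRIK4 was called too, at 72.9 and 25.7 CPM, while GRIA1, GRM5 and GRM8 were not. GRIA2 stood at 139 CPM in neuron-like clusters and 11.5 CPM in the others, GRIA4 at 310 and 26.9 CPM, and SLC17A6 at 52.3 and 4.29 CPM, each over 11-fold higher. GRIN1 had a similar ratio, 12.3-fold, at 3.78 and 0.308 CPM, below the 10 CPM limit. GRIA1, GRIK2 and GRM7 were spread wider, at 254 and 116 CPM, 388 and 145 CPM, and 299 and 226 CPM. Of the 20 genes at 10 CPM or more at day 5, 7 were highest in cluster 4, 5 in cluster 7, 4 in cluster 8, 2 in cluster 1, 1 in cluster 3 and 1 in cluster 6. Cluster 4 also had the deepest cells, with a median of 9431 UMIs.

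GRIN2A stood apart from the other receptor genes. It had 1022 CPM (1007 to 1038) in cluster 6, between 42.3 and 308 CPM in the other 10 clusters, and 80.4% of its day 5 UMIs lay in cluster 6, which held 29.8% of the cells. After thinning to 2000 UMIs, 76.5% of cluster 6 cells (74.9 to 78.1) had a GRIN2A UMI, against 36.2% in cluster 4 and 8.56% in cluster 0. Cluster 6 had 0 pan-neuronal markers 2-fold above the other cells, and 1 each of the neural progenitor (RFX4), astrocyte (SLC1A3), oligodendrocyte (MBP) and fibroblast (LUM) lists. In cluster 6 GRIA2 stood at 15.1 CPM, GRIK3 at 13.6 CPM and GRIN1 at 0.434 CPM, each below its level over the whole library. GRIK4 stood at 96.9 CPM in cluster 6, behind cluster 4 at 153 CPM.

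Other genes had their own clusters. GRIA4 reached 788 CPM (760 to 816) in cluster 4, with 45.6% of its UMIs there, and GRID1 was highest there too at 182 CPM. GRIK2 reached 724 CPM and GRIK1 195 CPM in cluster 7. GRIA1, GRIA2 and GRIK3 were highest in cluster 8, at 461, 285 and 381 CPM, a cluster of GABA and glycine neuron-like cells with SLC17A6 at 8.80 CPM. GRM7 was highest outside the neuron-like clusters, at 829 CPM in the collagen-led cluster 1, where GRIA1 stood at 377 CPM, GRIK2 at 393 CPM and GRIN2B at 82.3 CPM, while GRIA2 stood at 8.23 CPM. GRIA3 was highest in the NEUROD4-led cluster 3 at 115 CPM.

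**Figure D3:**
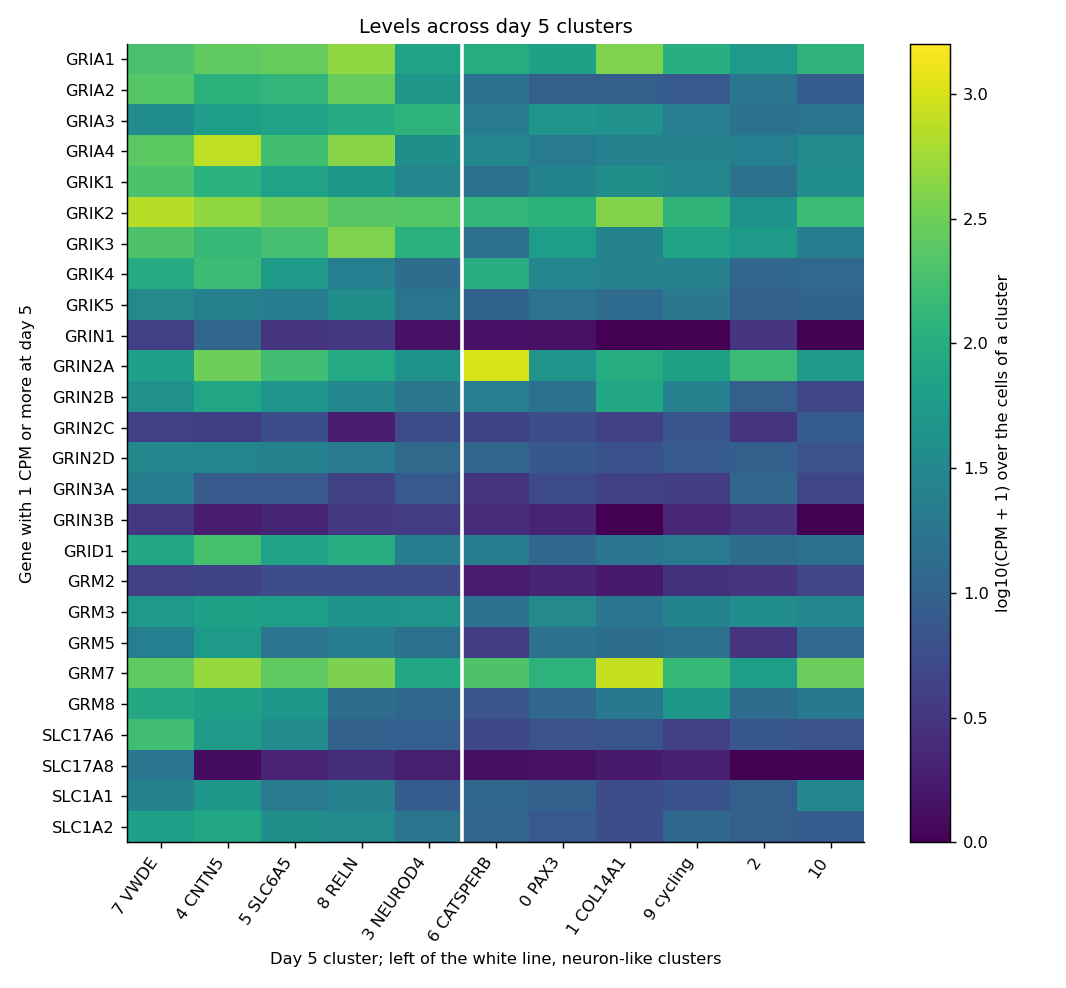
Level of the 26 genes with at least 1 CPM at day 5 in each of the 11 day 5 clusters, as log10(CPM + 1) by colour, with the neuron-like clusters left of the white line and the other clusters right of it. GRIN2A is brightest in cluster 6 at 1022 CPM, GRM7 in cluster 1 at 829 CPM, GRIA4 in cluster 4 at 788 CPM and SLC17A6 in cluster 7 at 164 CPM.

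SLC17A6 was spread over 3 neuron-like clusters. It stood at 164 CPM (149 to 181) in cluster 7, 57.3 CPM in cluster 4, 34.4 CPM in cluster 5, and between 3.27 and 8.80 CPM in the other clusters. After thinning to 2000 UMIs, 21.9% of cluster 7 cells, 9.62% of cluster 4 cells and 6.36% of cluster 5 cells had a UMI, against 0.604% (0.277 to 1.14) of the cycling-like cluster 9, which had a median of 4217 UMIs where cluster 7 had 3724. Clusters 3 and 8, at 1.36% and 1.52%, had intervals that overlapped that of cluster 9, so SLC17A6 there was not separated from this background. Unthinned, 36.1%, 40.7% and 15.8% of clusters 7, 4 and 5 had a UMI, 3.11% and 3.35% of clusters 3 and 8, and 1.54% of cluster 9.

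The day 5 cells were then divided by SLC17A6 itself, into 671 cells with a UMI, which is 7.28%, and 8548 without. Most of the 671 rested on few counts, with 434 holding 1 UMI and none more than 9, and the cells with SLC17A6 were deeper, with a median of 6301 UMIs against 4292. A cell without a UMI may still express the gene. Of the 671 cells, 80.2% lay in the neuron-like clusters, with 210 in cluster 7, 174 in cluster 5 and 127 in cluster 4.

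Of the other 28 genes, 10 were higher in cells with SLC17A6 and 0 were lower, where 1.9% of all 24061 genes were higher and 1.03% lower. The median log2 ratio was 0.86 over the 27 genes compared and 0.053 over all genes. The 10 included 2 AMPA subunits, 4 kainate subunits, GRID1, GRM8 and both membrane transporters. GRIA4 stood at 349 CPM with SLC17A6 and 101 CPM without, 3.44-fold higher, and GRIA2 at 145 and 46.7 CPM, 3.10-fold higher. GRIK2 stood at 526 and 196 CPM, GRIK3 at 164 and 77.7 CPM, GRIK4 at 120 and 58.4 CPM, and GRIK1 at 101 and 39.2 CPM. GRID1 stood at 92.2 and 39.2 CPM and GRM8 at 70.2 and 24.9 CPM. SLC1A2 stood at 55.2 and 19.0 CPM and SLC1A1 at 29.5 and 13.5 CPM. GRIK4 lost its call with SLC17A6 read in thinned cells, at a log2 ratio of 0.95, and among cells above or at most at the median depth, at 0.95 and 0.86. GRIK3, GRID1 and SLC1A1 lost theirs among cells at or below the median depth, at 0.84, 0.67 and 0.62, and SLC1A1 also in thinned cells, at 0.91, and as a mean per cell, at 0.92.

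None of the 7 NMDA subunits passed the rule. GRIN2A stood at 247 CPM with SLC17A6 and 423 CPM without, a log2 ratio of -0.77 that did not pass the rule and turned to 0.75 among cells outside cluster 6. GRIN2B stood at 42.4 and 32.6 CPM and GRIN2D at 22.6 and 13.2 CPM, neither called, and GRIN1 at 3.28 and 1.35 CPM. GRM7 stood at 276 and 250 CPM and GRIA3 at 44.3 and 41.9 CPM, not called, and the direction of both turned under alternatives. For GRIA3 the log2 ratio was -1.63 among cells at or below the median depth, called lower, and -0.69 within the neuron-like clusters. For GRM7 it was -0.15 and -0.09. After thinning to 2000 UMIs, 23.5% of cells with SLC17A6 and 7.21% without had a UMI of GRIA2, and 24.1% and 32.9% had one of GRIN2A. The unthinned shares were 53.1% and 13.7% for GRIA2 and 45.8% and 44.4% for GRIN2A.

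**Figure D4:**
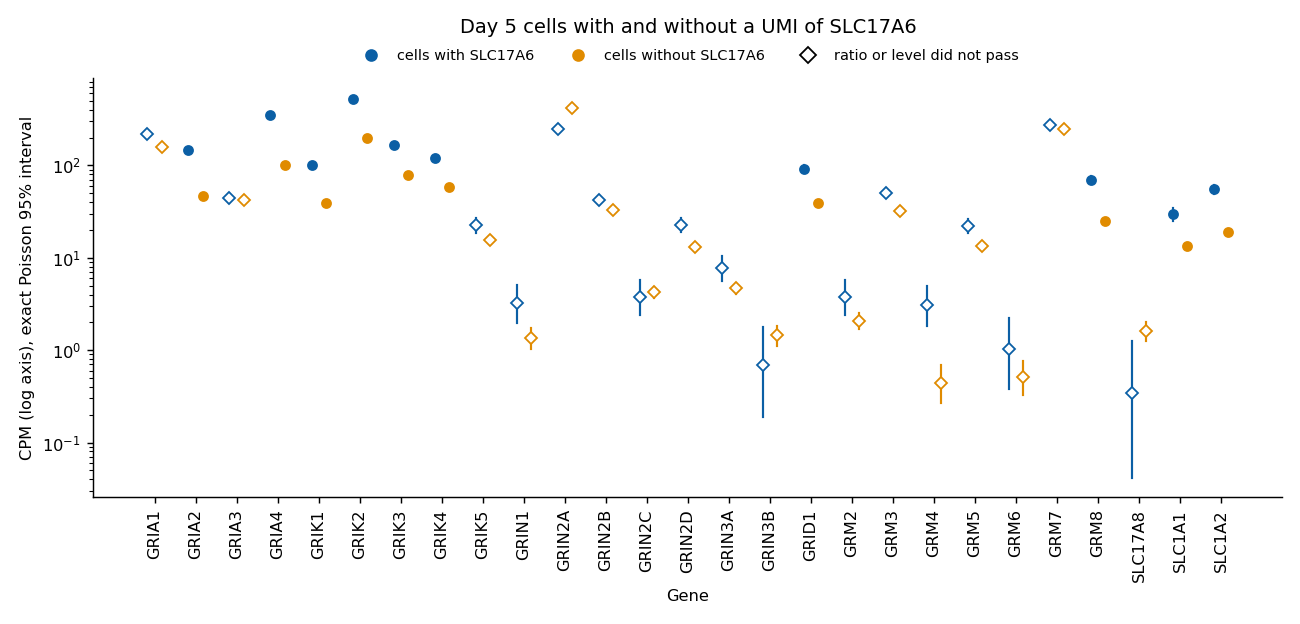
Level (CPM, log axis) of the listed genes other than SLC17A6 in day 5 cells with SLC17A6 (left point of each pair) and without it (right point), for the 27 genes compared, with exact Poisson 95% intervals as lines. Filled points mark the 10 genes that passed the rule, all higher with SLC17A6, while open diamonds include GRIN2A at 247 and 423 CPM.

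The count was smaller between cells of like clusters. Within the 5 neuron-like clusters, 538 cells with SLC17A6 and 2297 without, 1 of the 28 genes was called, GRIK4, where 0.325% of all genes were higher and 0.0894% lower. The ratios were smaller too. The log2 ratio there was 0.52 for GRIA4, 0.35 for GRIA2, 0.86 for GRIK2, 0.50 for GRIK1 and 0.04 for GRIK3. It was 0.22 for GRID1, 0.95 for GRM8, 0.53 for SLC1A1 and 0.56 for SLC1A2. Over all day 5 cells these genes had log2 ratios between 1.08 and 1.78. Marker sums moved with the split as well. Over the whole library the 12 pan-neuronal markers summed to 5661 CPM with SLC17A6 and 3756 CPM without, with 4 called higher, the 10 neural progenitor markers to 2185 and 3736 CPM with 0 called, the 9 fibroblast markers to 199 and 392 CPM with 3 called lower, and the 7 cycling markers to 367 and 666 CPM with 0 called. The 12 GABA and glycine markers summed to 332 and 234 CPM with 0 called, the 8 astrocyte and radial glia markers to 537 and 694 CPM with 1 higher and 1 lower, and the 7 oligodendrocyte markers to 61.0 and 83.5 CPM with 0 called. The other 9 glutamatergic markers summed to 119 and 74.6 CPM with 0 called. The part of these in the result was not tested beyond the restriction to neuron-like clusters.

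The genes outside the list with the largest ratios were VWDE, at 74.5 CPM with SLC17A6 and 9.82 CPM without, BRINP3, IL1RAPL2, TAFA1, KLHL1, CDH12, CNTN1, CNTN5, CCSER1 and RBFOX1, and those with the smallest were SNTB1, at 23.8 and 72.0 CPM, CDHR3, TTC6, ARHGEF28, COL25A1, CMTM8, CADPS2, ARHGAP24, TRABD2B and ARSJ. TTC6, ARHGEF28, ARHGAP24 and TRABD2B are also leading genes of cluster 6. By intron length, 0.525% of all genes under 20000 bases were higher with SLC17A6 and 22.0% of those over 500000 bases, and the receptor and transporter genes had 0 of 4 and 3 of 6. In the classes between, from shorter to longer, 1.36%, 3.84% and 8.85% of all genes were higher. The receptor and transporter genes there had 1 of 5, 2 of 4 and 4 of 8.

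Within cluster 7 the vesicular transporters SLC17A6 and SLC17A8 were counted in 210 and 12 of the 581 cells, with 1 cell holding both. SLC17A8 had 1 UMI in the 210 cells with SLC17A6 and 43 UMIs in the 371 cells without, which is 0.963 CPM and 27.8 CPM. The 44 UMIs came from these 12 cells, too few to show whether the genes keep to different cells. Cluster 7 held 58.7% of all SLC17A8 UMIs of the day 5 library. In the same cluster GRM7 stood at 139 CPM with SLC17A6 and 345 CPM without and GRM5 at 11.6 and 31.0 CPM, both lower by the rule. GRIK4, at 142 and 60.1 CPM, and GRM8, at 133 and 53.6 CPM, were higher. Over all genes compared within cluster 7, 0.258% were higher and 0.913% lower. In cluster 5 GRIK4 alone was called, at 93.4 and 42.8 CPM, where 0.217% of all genes were higher and 0.217% lower. In cluster 4 the rule called 0 of the 28 genes, where 0.11% of all genes were higher and 0.226% lower.

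The day 5 file also holds barcodes too shallow to be called cells, which can hold free RNA or small and damaged cells. In 50613 barcodes of 500 to 1000 UMIs, 21 of the 29 genes stood below their level in cells with separate intervals, 6 had overlapping intervals and 2 stood above, while over all genes 44.6% stood higher in cells and 24.5% lower. SLC17A6 was 1 of the 2, at 21.7 CPM in cells and 26.1 CPM (24.5 to 27.8) in the shallow barcodes, and GRM2 the other, at 2.28 and 6.01 CPM. GRIN1 stood at 1.57 CPM in cells and 1.98 CPM in these barcodes, SLC17A8 at 1.47 and 2.03 CPM, GRIN3B at 1.35 and 1.29 CPM, GRIK5 at 16.5 and 15.8 CPM, and SLC17A7 with 1 UMI in each. SLC1A2, at 23.2 CPM (21.8 to 24.5) in cells and 20.5 CPM (19.1 to 22.0) in these barcodes, overlapped too. The library-wide level of these 8 genes in cells was therefore not separated above that of the shallow barcodes. Within single clusters, SLC17A6 was separated above it in clusters 7, 4 and 5, at 164, 57.3 and 34.4 CPM. So were GRIN1 in cluster 4, at 10.5 CPM, and SLC17A8 in cluster 7 (12.4 to 22.8 CPM, from 12 cells). GRIK5 in cluster 7, at 31.3 CPM, and SLC1A2 in cluster 4, at 81.3 CPM, were too. GRM2, GRIN3B and SLC17A7 were not separated above it in any cluster. GRIN2A stood at 403 CPM in cells and 156 CPM (153 to 161) in these barcodes, GRM7 at 253 and 73.4 CPM and GRIK2 at 234 and 91.6 CPM. The GRIN2A level over the neuron-like clusters, 158.9 CPM (153 to 165), was not separated from that of the barcodes. Among these clusters GRIN2A stood above the barcodes in cluster 4, at 308 CPM, and overlapped in cluster 5, at 162 CPM. It stood below in clusters 7, 8 and 3, at 63.4, 88.8 and 42.3 CPM.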

How the data were processed

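UMI counts per gene and barcode were deposited by the authors as whole numbers, 1 matrix for each of 3 libraries. The submitters' processing notes name Cell Ranger 4.0.0 and hg38 (GRCh38). Per the file headers, the software version is 3.0.1 for day 0, cellranger-4.0.0 for day 3 and Cell Ranger 4 for day 5. The day 5 matrix was unfiltered, with 2037119 barcodes, of which 9304 were called cells at a threshold of 2155 UMIs, set from the 10000 deepest barcodes as their percentile 99 divided by 10. Every cell kept had at least 500 UMIs and 300 genes, and no more than 20% mitochondrial UMIs. No doublet caller was run and doublets were kept.

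UMIs were summed over kept cells and divided by totals over the 32732 genes shared by Ensembl ID, 246471041, 18710180 and 50922769 UMIs at days 0, 3 and 5. Intervals are exact Poisson for levels, exact binomial for shares and conditional binomial for ratios, all at 95%, and cover counting error only. Intron length is gene span less the union of exons in GENCODE 29, which held all shared IDs. Clustering of day 5 cells used scanpy 1.11.5 and igraph 0.11.9, with 2000 variable genes on counts scaled to 10000 per cell and logged, 30 components, 15 neighbours and a Leiden resolution of 0.5. Other tools were Python 3.11.15, scipy 1.17.1, and edgeR 4.0.16 in R 4.3.3, used for TMM factors alone. With 1 library per group and cells that are not replicates, there was no test.

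The 29 genes, the other lists, the markers and the rules were chosen with earlier results of these data known. Named genes were all 29, up to 4 genes per accompanying list with the largest CPM, 10 genes at each end of the ratios in the SLC17A6 split, at 50 CPM or more with separate intervals, and 4 label checks. A gene that this rule would name is not reported here. Simulated counts of 32732 genes checked the rule in each comparison of days: it called all 50 genes changed 3-fold, 0 of 50 changed 1.5-fold and 0 of 32532 left unchanged. The simulation holds no variation between libraries. Its changed genes were all drawn from genes with a mean above the 10 CPM limit, and unchanged genes far under that limit cannot be called. The check therefore says nothing about genes under the limit, such as GRIN1. Alternatives were a strict cell filter, other scalings, thinned cells, other CPM limits, another day 5 cell call and subsets of day 5 cells.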

Additional observations from a re-analysis of the deposited data

Results flagged for a closer look

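The 29 genes were also counted in day 5 barcodes that were not called as cells, data outside the main comparisons, where their sum was above the level that a count of 0 allows. They summed to 1749 CPM in cells, against 735 CPM (726 to 744) in the 50613 barcodes of 500 to 1000 UMIs and 800.4 CPM (772 to 829) in the 1332094 barcodes of 1 to 100 UMIs. The level of 3 UMIs is 0.0791 CPM in the deeper of these sets and 0.783 CPM in the shallower. GRIN2A stood at 403 CPM in cells and at 156 and 158 CPM in the deeper and the shallower set, and SLC17A6 at 21.7 CPM in cells and at 26.1 and 16.4 CPM. With 1 library per group, no group was large enough to look for outlying samples.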

How the results depend on the processing

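No paired analysis was possible because each group is 1 library and no comparison came from a test, and no replicate could be left out. Between days and in the SLC17A6 split, no called gene changed sign under any alternative run. Between neuron-like and other clusters, GRIN2A turned to a log2 ratio of 1.27 without cluster 6, against -1.77 with it, and the count of 16 became 14; the cause was not tested. Between day 3 and day 0 the count of 3 became 7 with a larger CPM of at least 1 and 12 with no CPM limit, and 18 of 21 called values over 3 genes kept their call. Between day 5 and day 3, 170 of 171 called values over 19 genes kept their call, and between day 5 and day 0 all 171 did. In the SLC17A6 split 92 of 110 called values over 10 genes did. There the count of 10 was 1 among neuron-like clusters and between 7 and 13 under the other alternatives run. Cells at or below the median depth added GRIA3 as lower, at log2 -1.63, and cells with at least 2 SLC17A6 UMIs, 237 in number, added GRIN2A as lower, at -1.35. The subsets by cluster were chosen after seeing the data. Depth limits the zeros, since 3 UMIs are 0.160 CPM at day 3.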
